A study of Mus musculus with 50 samples.

Results

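The 2 arrays labelled BTBT T+tf/J, an inbred mouse strain, were set against the arrays of 22 other inbred strains, all from dorsal root ganglion, where the sensory neurons of trunk and limbs have their cell bodies. They are 2 of 50 arrays of the series, which has 1 array for each sex of 25 strains. Each array carried RNA pooled from 3 naive, wild-type mice of 2 months, so that the strain is represented by 1 pool of 3 males and 1 pool of 3 females, and nothing but strain and sex differs between the groups by their labels. The other strains are 129S1/Sv1mJ, A/J, AKR/J, BALB/CByJ, BUB/BnJ, C3H/HeJ, c57BL/6J, C57BR/cdJ, C58/J, CBA/J, DBA/2J, FVB/NJ, KK/HIJ, MRL/MpJ, NOD/LtJ, NON/LtJ, NZO/HILtJ, NZW/LacJ, P/J, RIIIS/J, SJL/J and SWR/J, with 44 arrays. The 4 arrays labelled SM/J and PL/J were left out because their labels are doubtful. Strain names are spelled as in the labels. A strain of almost the same spelling, BTBR T+tf/J, is widely studied for its low sociability and repetitive grooming, and whether the label means that strain was not settled from these values.

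Inbred strains are close to homozygous at every locus, so that mice of a strain share their variants and strains differ from each other by fixed ones. A level that differs between strains in the same tissue is therefore commonly read as a trait of the strain. The ganglion itself is a mixture of sensory neurons, the Schwann and satellite glial cells around them, vessels, resident macrophages and connective tissue. In such bulk RNA, fewer cells of a type and less RNA per cell cannot be told apart. All values below are log2 intensities, the log2 of the deposited value + 1, and each value is the signal of 1 probe set, the group of array probes that reads 1 stretch of a transcript. A gene was called when its limma adjusted p was under 0.05 and both BTBT T+tf/J arrays lay at least 1 log2 unit, on the same side, from the mean of the 22 other arrays of their sex. The p-values test the difference between strains, with the spread between the male and female pools within strains as its error.

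Neuronal and myelin markers were high in both arrays. The neuronal markers Prph and Uchl1 were at 12.28 and 13.04 in the male and at 12.37 and 13 in the female BTBT T+tf/J array. The myelin genes Mbp and Pmp22 were at 13.67 and 13.65 in the male array and at 13.68 and 13.62 in the female one. All of these lay inside the range of the other arrays of their sex, but some other markers in the male array did not. The neuronal genes Snap25 (12.65) and Stmn2 (12.42) lay below the other males, at 13.09 to 13.67 and 12.76 to 13.27. The satellite glia gene Fabp7 (12.5) lay below 12.69 to 13.45, and the neuronal gene Tubb3 (13.01) above 12.35 to 12.91. In the female array these genes were inside the range. The 2 arrays differed from each other in other ways. The control signal of Gapdh was 0.60 log2 units higher at the 3' than at the 5' end in the male BTBT T+tf/J array, the highest of all arrays compared, and -0.37 in the female, against -0.73 to 0.34 in the 44 arrays of other strains. In the male array 691 genes lay at least 1 log2 unit from the other strains (280 higher and 411 lower), and in the female array 118 (58 higher and 60 lower), against 78 to 757 with a median of 160 in the other arrays. Across the 11209 genes tested, which are not independent replicates, the differences of the 2 BTBT T+tf/J arrays correlated at r = 0.31, against 0.20 to 0.66 with a median of 0.52 in the other strains.

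The male BTBT T+tf/J array also had a high signal of several genes that was not high in the female array. Csn3, which encodes kappa-casein, a milk protein, was at 11.40 in the male and 2.56 in the female BTBT T+tf/J array, against 2.55 to 9.75 (median 4.90) in the other male arrays and 2.54 to 2.6 in the other female arrays. By a rule added after the values were seen, 11 genes were at least 3 log2 units higher in the male array and within 0.5 in the female array, against 0 to 5 such genes (median 0) in the other strains. The female C57BR/cdJ array had 12 genes as far above in the female array only. The 11 genes of the male BTBT T+tf/J array included Csn3, Wfdc18, the keratin gene Krt8, the iron-binding lipocalin gene Lcn2, Xist and Plet1. The others were the chemokine genes Cxcl1 and Cxcl2, the lactoferrin gene Ltf, the syndecan gene Sdc4 and the tight junction gene Cldn7. In all 11 the male BTBT T+tf/J array was the highest of 23 male arrays, and the male SWR/J array was the next. No gene was at least 3 units lower in the male array only, or away by as much in the female array only. Of 5 further genes looked up, the milk protein genes Csn2 and Wap and the epithelial keratin gene Krt14 stayed inside the range of the other male arrays. They were at 2.44, 2.85 and 2.53 in the male BTBT T+tf/J array. The epithelial genes Krt18 and Epcam were at 6.58 and 5.15 there, the highest of 23 male arrays. The other male arrays ran from 2.9 to 5.45 and from 3.59 to 4.72. In the female BTBT T+tf/J array Krt18 and Epcam were at 2.9 and 3.68.

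Xist, a noncoding RNA made from the inactive X chromosome of females, was at 7.78 in the male BTBT T+tf/J array, against 2.36 to 6.73 (median 2.93) in the other male arrays. The female BTBT T+tf/J array was at 10.33, against 9.58 to 11.09 in the other female arrays. Y chromosome genes were present: Eif2s3y was at 6.67 in the male BTBT T+tf/J array, against 6.37 to 8.69 in the other male arrays, and Kdm5d at 4.37, against 3.68 to 5.58. Uty, another Y chromosome gene, was at 4.33, against 4.68 to 6.60, the lowest of the 23 male arrays. Csn3 was above 4 in 13 of the 22 other male arrays too, among them c57BL/6J at 7.61, and in no female array of the 23 strains. The Csn3 level of each array was used as a covariate in an alternative added after the values were seen. It entered only the p-value, while the distance was read from values not adjusted for it. At any p 45 genes met the distance, so that few calls could be added. All 43 genes called below kept their call and no further gene was called. Without the male BTBT T+tf/J array 37 of the 43 kept it, and Mndal, Rbm45, Cap1, Rnf41, Syt6 and Adat2 lost it.

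**Figure D1:**
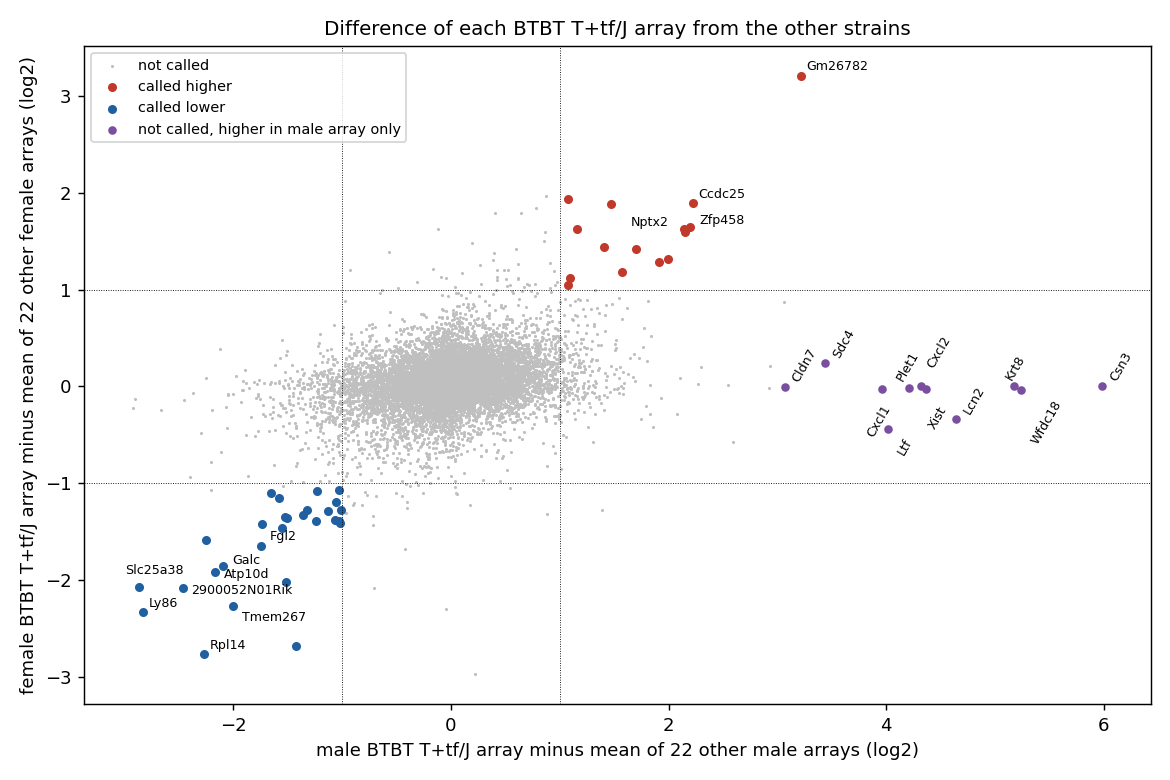
Each point is 1 of 11209 genes, placed by the difference of the male (x axis) and the female (y axis) BTBT T+tf/J array from the mean of the 22 other arrays of that sex, in log2 units, with dotted lines at 1 log2 unit. The 15 genes called higher and 28 called lower lie in 2 corners, and the 11 genes far from the others in the male array only, up to Csn3 at 5.99, lie along the horizontal axis.

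Of 11209 genes, 15 were called higher in BTBT T+tf/J ganglia (0.134%) and 28 lower (0.25%). The adjusted p alone passed 1260 genes, 659 higher and 601 lower, the most of the 23 strains, against 174 to 1192 in the others. Of these, 330 were at least 1 log2 unit away in the male array only, 43 in the female array only and 43 in both. By the same rule the 22 other strains had 40 to 107 genes called, with a median of 68.5, so that by the distance in both arrays 43 lay toward the low end of the strains. The 43 genes fell into 3 classes, formed after the values were seen. They were set by how many other strains also met the distance of 1 log2 unit, on the same side, in both their own arrays. The number was none for 11 genes, 1 to 4 strains for 21 genes and 5 or more for 11 genes. A strain that met the distance could still lie nearer to the mean than BTBT T+tf/J.

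The first class holds the genes for which no other strain met the distance in both its arrays, although single strains could come close to it. Each other strain was measured from a mean that included itself, which makes its distance smaller. In Adat2 c57BL/6J and A/J had mean differences of -1.04, the same as BTBT T+tf/J at -1.04. Of its 11 genes, Scn2b and Socs2 were higher, and Rnase4, Slc6a19, 2610044O15Rik8, Rnf41, Syt6, Eef1akmt2, Rarres1, Tbcc and Adat2 were lower. In 6 of them (Socs2, Rnase4, 2610044O15Rik8, Eef1akmt2, Rarres1 and Tbcc) both BTBT T+tf/J arrays lay outside the range of all 44 other arrays.

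Socs2 encodes a suppressor of cytokine signalling that restrains the growth hormone pathway. Its intensity was 9.28 in the male and 9.20 in the female BTBT T+tf/J array, and the other 44 arrays ran from 7.41 to 8.90 with a median of 8.17. Both BTBT T+tf/J arrays were above every other array, 2.09-fold higher than the mean of the other strains (1.06 ± 0.13 log2 units, SE, adjusted p = 7.28e-06). The next strain was FVB/NJ at 8.84. Its further probe sets read less of this difference, with 0.36 and 0.21 in the male and female array for one, and -0.32 and 0.15 for the other, neither of them called.

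Rnase4, a secreted ribonuclease gene, had the largest fall of the class. It was at 6.80 and 7.47 in the BTBT T+tf/J arrays, against 8.23 to 10.09 (median 8.97) in the others, a level 3.79-fold lower (-1.92 ± 0.19, adjusted p = 1.11e-07). No other array reached down to either of them, and 21 of the 22 single strains differed from BTBT T+tf/J by the same rule.

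Rarres1, a gene known to respond to retinoic acid, was at 6.46 and 6.99 in BTBT T+tf/J, against 7.01 to 8.92 (median 8.11), and 2.59-fold lower (adjusted p = 4.58e-08). Tbcc encodes a cofactor that folds tubulin. It was at 5.68 and 5.72, against 6.17 to 7.26 (median 6.85), and 2.22-fold lower (adjusted p = 9.76e-07). Eef1akmt2, a methyltransferase of a translation elongation factor, was at 5.16 and 5.02, against 5.64 to 6.83 (median 6.33), and 2.31-fold lower (adjusted p = 0.000228). In each of these 3 genes both arrays of the strain lay below the whole range of the others.

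2610044O15Rik8 lay likewise below all others, at 5.43 and 5.64 in BTBT T+tf/J, against 5.85 to 7.43 (median 6.91). Slc6a19, which encodes a neutral amino acid transporter best known from gut and kidney, was at 3.63 and 3.99, against 3.51 to 6.40 (median 5.34), where 1 array of another strain was as low. It was 2.98-fold lower (adjusted p = 2.83e-05), and its BTBT T+tf/J values lay under the log2 intensity of 4 used to filter low signals. The same held for Syt6 and Adat2 in this class. In the other classes it held for Rpl14, Atp10d, Zfp991, Snx29, Ocel1, Atpsckmt, Galc, AI506816 and Car8.

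Scn2b encodes the beta2 subunit of voltage-gated sodium channels, which modulates the channels that fire sensory neurons. Its leading probe set was at 9.61 and 9.56 in BTBT T+tf/J, against 6.81 to 9.78 (median 8.33), and 2.16-fold higher (adjusted p = 9.5e-06). The strain was at the top of a wide spread rather than beyond it, with 3 other arrays as high and NON/LtJ next at a mean of 9.52. A second probe set of Scn2b moved the other way, as described below with the other opposed probe sets.

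Rnf41, Syt6 and Adat2 were the other genes of the class. Rnf41, a ubiquitin ligase gene, was at 5.92 and 5.94 in BTBT T+tf/J, against 5.69 to 8.08 (median 7.39). Its second probe set fell by 0.92 and 0.88 at an adjusted p of 0.00043, under the distance of 1. Syt6, a synaptotagmin gene, was at 3.19 and 3.24, against 2.85 to 5.65 (median 4.59). Adat2, a subunit gene of a tRNA deaminase, was at 3.21 and 3.59, against 3.07 to 7.04 (median 3.78), where 12 other arrays were as low, so that its distance of 1.02 and 1.07 comes from a group of strains with high values. All 3 lost their call without the male BTBT T+tf/J array, where the adjusted p missed the threshold while the differences of the female array were -1.28, -1.15 and -1.07.

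**Figure D2:**
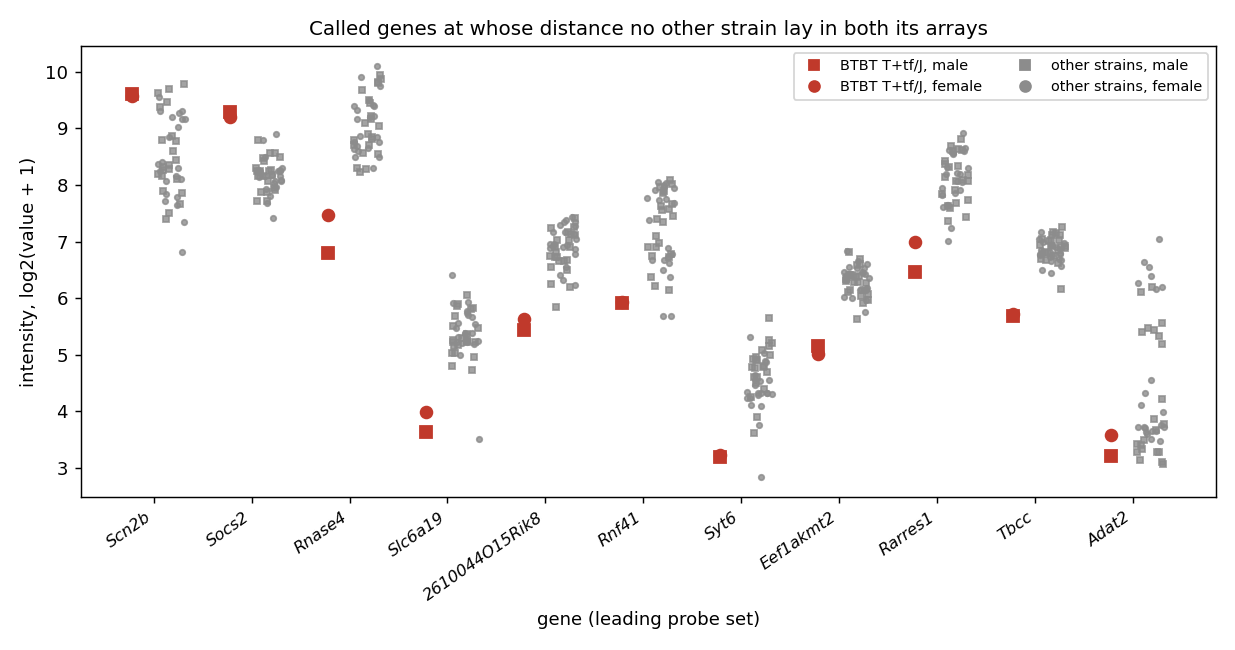
Log2 intensity of the 11 called genes for which no other strain met the distance in both arrays. The male (squares) and female (circles) BTBT T+tf/J arrays are in red at the left of each gene. The 44 arrays of other strains are in grey at the right. In Socs2, Rnase4, 2610044O15Rik8, Eef1akmt2, Rarres1 and Tbcc the red points lie outside all grey points, and in Scn2b, Rnf41 and Adat2 they lie at the edge of a wide grey spread.

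In the second class 21 genes were shared with 1 to 4 other strains, 7 of them higher and 14 lower. The largest difference of all 43 was in Gm26782, a gene without an established role. It was at 8.11 and 7.88 in BTBT T+tf/J, against 4.07 to 7.80 (median 4.42), and 9.26-fold higher (3.21 ± 0.16, adjusted p = 1.3e-13). The other arrays formed a low and a high group, and the high group was c57BL/6J, C57BR/cdJ and C58/J, which are related strains. BTBT T+tf/J lay just above them.

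Ly86 encodes MD-1, the partner of the immune receptor Rp105. It was at 7.92 and 8.79 in BTBT T+tf/J, against 7.58 to 12.44 (median 11.36), and 5.97-fold lower (-2.58 ± 0.16, adjusted p = 5.43e-12). A/J, C3H/HeJ and CBA/J also met the distance, with mean differences of -1.83, -2.91 and -2.41. The macrophage list as a whole had a median of -0.19 in the male BTBT T+tf/J array and -0.20 in the female one. In that list 8 of 11 genes were lower in both arrays, against 26.5% of all genes. None of the 11 was called, against 0.134% of all genes called higher and 0.25% lower.

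The genes shared with MRL/MpJ alone were 3, Slc25a38, Rpl14 and 2900052N01Rik, all on chromosome 9 in the RefSeq gene table. Slc25a38 and Rpl14 lie near each other there, and 2900052N01Rik lies far from both. Slc25a38 encodes the mitochondrial glycine carrier needed for heme synthesis. It was at 3.33 and 4.39 in BTBT T+tf/J, against 4.10 to 6.78 (median 6.37), and 5.52-fold lower (adjusted p = 1.5e-11), with MRL/MpJ next at 4.56. The probe set of the ribosomal protein gene Rpl14 was at 3.72 and 2.83, against 3.06 to 8.13 (median 5.44), and 5.71-fold lower (adjusted p = 6.66e-13). 2900052N01Rik was at 5.10 and 5.82, against 5.22 to 10.03 (median 7.74), and 4.84-fold lower (adjusted p = 5.4e-08). In each of the 3, BTBT T+tf/J and MRL/MpJ were low and the other 21 strains differed from BTBT T+tf/J by the same rule. A second probe set of 2900052N01Rik differed by only -0.23 and -0.3 and was not called.

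The reference sequences just before the start sites of these 3 genes are shown because all 3 were low in BTBT T+tf/J and MRL/MpJ; in the other strains their levels did not run in parallel. They are the 250 bases before each start in RefSeq (build GRCm38.p6), and the capitals mark GGGCGG, a GC box, on either strand.
Slc25a38, chr9:120110132-120110381, plus strand: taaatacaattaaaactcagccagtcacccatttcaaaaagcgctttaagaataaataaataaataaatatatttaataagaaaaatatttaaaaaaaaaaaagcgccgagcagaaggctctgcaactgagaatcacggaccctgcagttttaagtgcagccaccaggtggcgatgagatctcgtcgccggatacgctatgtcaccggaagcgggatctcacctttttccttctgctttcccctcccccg
Rpl14, chr9:120571267-120571516, plus strand: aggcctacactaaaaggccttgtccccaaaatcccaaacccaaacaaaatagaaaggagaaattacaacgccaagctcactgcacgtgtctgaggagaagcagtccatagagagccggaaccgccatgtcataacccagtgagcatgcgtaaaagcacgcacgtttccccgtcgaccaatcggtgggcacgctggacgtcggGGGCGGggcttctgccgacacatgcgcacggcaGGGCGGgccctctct
2900052N01Rik, chr9:46913353-46913602, plus strand: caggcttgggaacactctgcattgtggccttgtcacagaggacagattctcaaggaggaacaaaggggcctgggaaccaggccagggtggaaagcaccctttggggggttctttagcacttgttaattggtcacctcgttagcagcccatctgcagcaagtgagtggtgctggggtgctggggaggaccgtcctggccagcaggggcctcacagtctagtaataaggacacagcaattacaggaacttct
Rpl14 held 2 matches of GGGCGG, and Slc25a38 and 2900052N01Rik held 0 in these windows. The letters CCAAT, searched on both strands as well, were found once each in Rpl14 and 2900052N01Rik. Of 32817 RefSeq promoter windows of this length, 32.7% held GGGCGG and 33.8% held CCAAT. The sequences are those of the reference genome, and the bases that BTBT T+tf/J or MRL/MpJ carry there are not analysed here.

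Cd59a, an inhibitor of the complement attack complex on cell surfaces, was shared with 129S1/Sv1mJ alone. It was at 7.91 and 7.65 in BTBT T+tf/J, against 7.65 to 10.19 (median 9.64), and 3.40-fold lower (adjusted p = 5.79e-10). A second probe set was called in the same direction, with differences of -2.42 and -1.41. Fam89a was at 5.84 and 4.74, against 4.46 to 8.18 (median 7.62), and was shared with 129S1/Sv1mJ, A/J and BALB/CByJ. Across all 43 genes 129S1/Sv1mJ lay with BTBT T+tf/J in 15, the most of any strain, and AKR/J in 1, the fewest. Set against the other strains by the same rule, 129S1/Sv1mJ also had the most genes called, 107. AKR/J had 59, and the median of the strains other than BTBT T+tf/J was 68.5. Whether 129S1/Sv1mJ shared more genes than its larger number of called genes would give was not tested.

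Fgl2, a fibrinogen-like gene of immune cells, was shared with P/J alone, at 5.19 and 5.94 in BTBT T+tf/J, against 5.48 to 8.55 (median 7.20), and 3.24-fold lower (adjusted p = 0.000134). Atp10d, a phospholipid flippase gene, was shared with c57BL/6J and C57BR/cdJ, at 2.45 and 2.94, against 2.38 to 5.88 (median 4.87). Alad encodes an early enzyme of heme synthesis. It was at 6.81 and 6.57, against 6.09 to 8.74 (median 8.11), 2.33-fold lower (adjusted p = 2.06e-08), and c57BL/6J and KK/HIJ were as low. Zfp991, a zinc finger gene, and Atpsckmt, a methyltransferase gene of mitochondrial ATP synthase, were shared with KK/HIJ alone, at 2.83-fold and 2.17-fold lower. The sorting nexin gene Snx29 and Ocel1 were 2.70-fold and 2.48-fold lower.

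Nptx2 encodes neuronal pentraxin 2, a secreted protein that gathers glutamate receptors at synapses. It was at 8.52 and 7.78 in BTBT T+tf/J, against 3.79 to 8.04 (median 6.91), and 3.69-fold higher (adjusted p = 1.2e-05). A second probe set was called in the same direction at 1.5 and 1.92. Strains at the low end set part of the distance: against the median rather than the mean of the other strains Nptx2 was not called. The other genes higher in this class were Zfp458, a zinc finger gene (3.78-fold), Vps52, which encodes a subunit of a complex that returns endosomes to the Golgi (3.66-fold), Gng4, a G protein gamma subunit gene (2.94-fold), the interferon-inducible gene Mndal (2.69-fold) and Sbsn, a secreted epidermal protein gene (2.6-fold). Sbsn was called in a second probe set too, at 1.35 and 1.39, while 2 further probe sets of Gng4 were not called, at 0 and -0.02 and at -0.14 and 0.58.

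In the third class 11 genes put BTBT T+tf/J with 5 to 16 other strains. In several of them the other strains lay at a high or a low level, and BTBT T+tf/J sat on one of these. Cpne8, a copine gene, was at 8.86 and 9.09 in BTBT T+tf/J, against 3.00 to 9.78, and the median of the others was 8.99, so that its difference of 1.68 log2 units (adjusted p = 5.65e-10) comes from 7 strains at the low level. Pdxdc1, at 7.95 and 8.05 against a median of 7.75, and Cap1, an actin regulator gene, at 10.14 and 10.43 against a median of 10.42, were of the same kind. Zfp945, Rbm45 and Ccdc25 were the other genes higher, with 7, 9 and 5 other strains that met the distance too.

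Galc, the lysosomal enzyme gene whose loss causes Krabbe disease in humans and the twitcher phenotype in mice, was at 2.84 and 3.12 in BTBT T+tf/J, against 2.6 to 7.62 (median 3.94). Its leading probe set was 3.92-fold lower (adjusted p = 6.9e-07) and 11 other strains met the distance too, while a second probe set differed by -0.25 and 0.28. Car8, which encodes a carbonic anhydrase relative that binds an inositol trisphosphate receptor, was at 3.57 and 3.30, against 3.02 to 8.08 (median 3.54), at the low level of 11 other strains. The high level, in c57BL/6J, C57BR/cdJ, C58/J and NZO/HILtJ among others, set its difference of -1.14. AI506816 was 2.70-fold lower, with 9 other strains that met the distance too.

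Called genes lay on 16 chromosomes, and with at most 3 tested genes between them they formed 0 runs of 3 or more and 1 pair. The pair was 4833420G17Rik and Tmem267 on chromosome 13, with 1 tested gene between them. Tmem267 was at 4.39 and 4.22 in BTBT T+tf/J, against 3.38 to 8.27 (median 7.01), and 4.39-fold lower (adjusted p = 6.28e-06). 4833420G17Rik was at 6.29 and 5.63, against 5.17 to 8.03 (median 7.58), and 2.32-fold lower (adjusted p = 2.49e-05), with 2 further probe sets called in the same direction at -2.15 and -1.75 and at -1.28 and -1.47. 129S1/Sv1mJ, CBA/J, DBA/2J, NZO/HILtJ and RIIIS/J were low in both genes by the rule. C3H/HeJ met the rule in Tmem267 and in the 2 further probe sets of 4833420G17Rik. On the leading probe set of 4833420G17Rik its mean difference was -1.27, against -1.21 in BTBT T+tf/J, but it missed the distance in at least 1 array. The gene between them, 3110070M22Rik, differed by -0.02 and -0.14, and the neighbouring cholesterol synthesis gene Hmgcs1 by -0.15 and -0.01. Paip1, the neighbour on the other side, differed by -0.53 and 0.24 in its leading probe set, while a further probe set was called higher by 1.68 and 2.51 (adjusted p = 4.89e-07), shared with the 6 strains that share Tmem267.

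The promoters of the pair are shown since both genes were low in BTBT T+tf/J and in the same other strains. Tmem267 has 2 start sites (RefSeq, build GRCm38.p6, 250 bases before each start, GGGCGG on either strand in capitals).
Tmem267, start site 1, chr13:119487836-119488085, plus strand: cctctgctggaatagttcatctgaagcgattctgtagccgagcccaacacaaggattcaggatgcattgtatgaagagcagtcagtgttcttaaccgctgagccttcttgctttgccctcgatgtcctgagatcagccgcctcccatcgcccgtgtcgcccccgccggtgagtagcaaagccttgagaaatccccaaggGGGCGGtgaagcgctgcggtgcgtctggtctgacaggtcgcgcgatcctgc
Tmem267, start site 2, chr13:119488223-119488472, plus strand: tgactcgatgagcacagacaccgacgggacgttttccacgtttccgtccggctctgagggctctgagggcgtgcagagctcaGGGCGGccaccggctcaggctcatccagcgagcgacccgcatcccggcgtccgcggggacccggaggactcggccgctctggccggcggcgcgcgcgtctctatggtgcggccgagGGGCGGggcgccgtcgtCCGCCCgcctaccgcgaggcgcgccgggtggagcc
4833420G17Rik, chr13:119462509-119462758, plus strand: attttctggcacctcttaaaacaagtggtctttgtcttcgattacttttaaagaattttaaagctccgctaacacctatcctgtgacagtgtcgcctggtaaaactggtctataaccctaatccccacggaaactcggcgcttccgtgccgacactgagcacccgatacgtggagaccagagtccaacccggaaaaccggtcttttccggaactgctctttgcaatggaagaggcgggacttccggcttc
The windows before the start sites of Tmem267 held 1 and 3 matches of GGGCGG, and that of 4833420G17Rik held 0. CCAAT was not found in these windows.

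**Figure D3:**
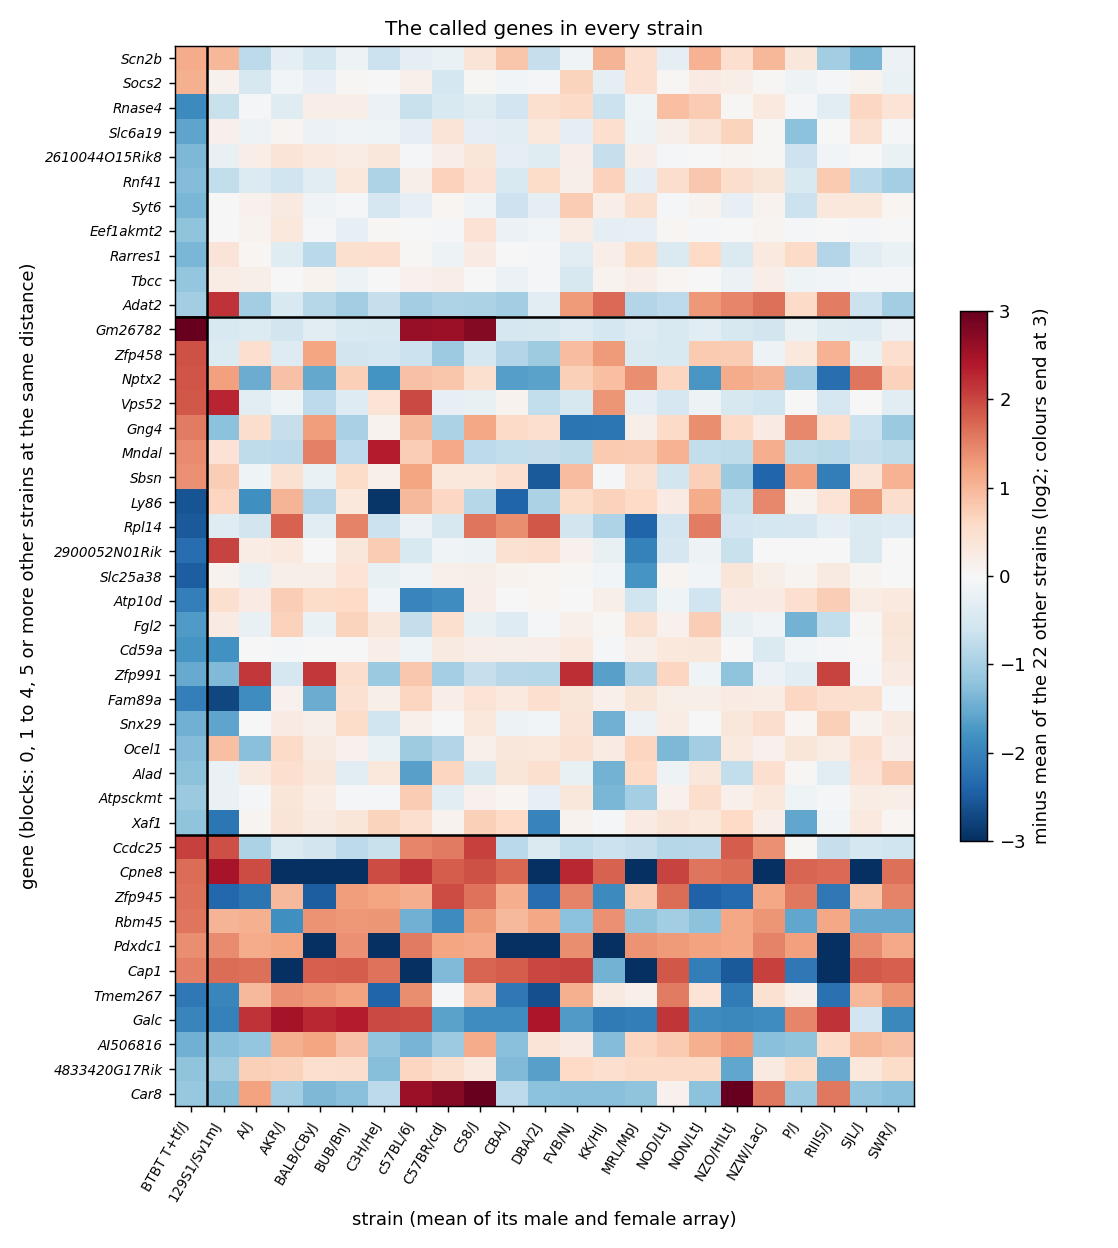
Mean of the male and female difference of each strain (columns) from the mean of the 22 other strains of the same sex, for the 43 called genes (rows), in log2 units with colours that end at 3 and BTBT T+tf/J in the first column. The 3 blocks hold the 11 genes for which no other strain met the distance in both arrays, the 21 shared with 1 to 4 strains and the 11 shared with 5 or more, where blocks of other strains have the same colour as BTBT T+tf/J.

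Different probe sets of a gene did not always tell the same. Of the 43 genes, 22 had 1 tested probe set and 21 had more. In 4 of the 21 (4833420G17Rik, Cd59a, Nptx2 and Sbsn) a further probe set was called in the same direction, in 3 (Pdxdc1, Scn2b and Xaf1) in the opposite direction, and in 14 in neither. Xaf1 encodes an interferon-inducible factor of cell death. Its leading probe set was at 5.88 and 5.83 in BTBT T+tf/J, against 4.61 to 8.12 (median 7.27), and 2.31-fold lower (adjusted p = 0.000485). Its second probe set was at 9.41 and 8.95 in BTBT T+tf/J, against 3.34 to 8.44 (median 3.60) in the other male and 3.13 to 8.31 (median 3.22) in the other female arrays. That probe set was 5.15 and 5.07 log2 units higher (adjusted p = 1.33e-20), so that the direction of Xaf1 depends on which probe set is read. The pattern was shared: 129S1/Sv1mJ, DBA/2J and P/J met the distance on both probe sets, low on the leading and high on the second. DBA/2J was next on the second at a mean of 8.38.

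For Scn2b the second probe set was at 3.59 and 4.18 in BTBT T+tf/J, against 3.18 to 7.47 (median 5.28) in the other males and 3.27 to 7.77 (median 5.39) in the other females. It was lower by 1.44 and 1.18 log2 units than the mean of the others (adjusted p = 0.00229), while the leading one was higher by 1.10 and 1.12. For Pdxdc1 a further probe set was at 2.93 and 2.87 in BTBT T+tf/J, the level of most strains (medians 2.92 and 2.86), and lay 1.57 and 1.58 below a mean raised by strains near 9. Averaged over all their tested probe sets, the 3 genes had differences of 1.95 (Xaf1, adjusted p = 5.48e-11), -0.10 (Scn2b, 0.673) and -0.13 (Pdxdc1, 0.558).

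**Figure D4:**
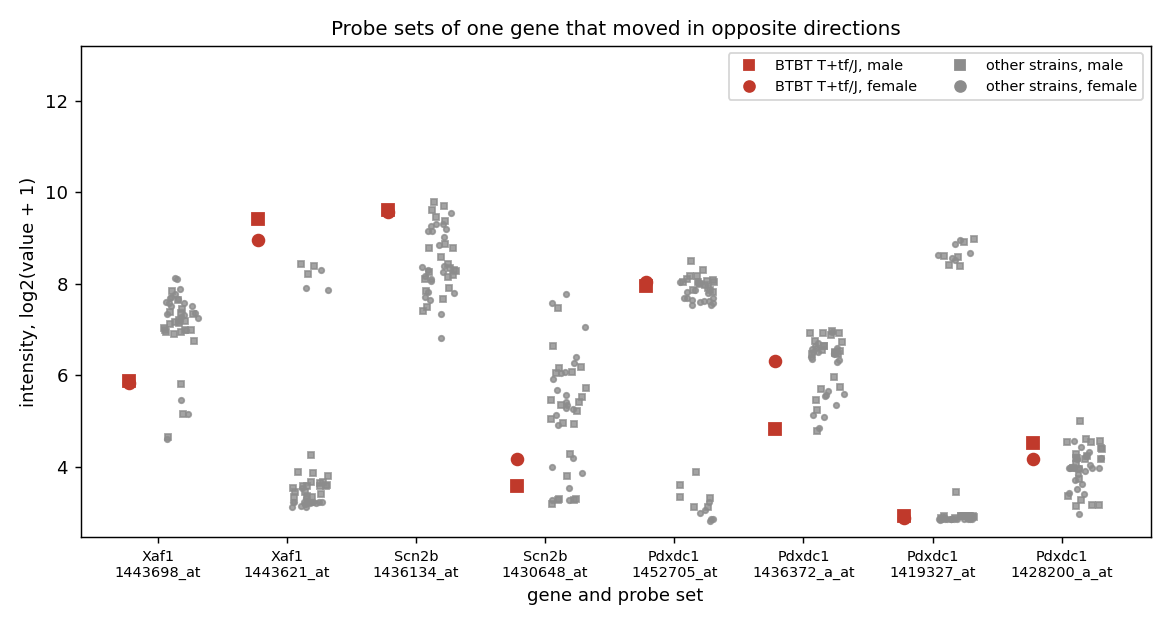
Log2 intensity of the 8 tested probe sets of Xaf1, Scn2b and Pdxdc1, with the male (squares) and female (circles) BTBT T+tf/J arrays in red and the 44 other arrays in grey. BTBT T+tf/J is low on the first and high on the second probe set of Xaf1, and high on the first and low on the second of Scn2b.

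Counted by probe set rather than by gene, 153 were called, 60 higher and 93 lower. Of these, 43 were the leading probe sets above, 78 were further probe sets of a gene, 23 carried no gene symbol and 9 carried several. In 67 genes a further probe set was called and the leading one was not, with the leading one on the same side in both arrays in 22 and on the other side in both in 20. Phgdh, the first enzyme of serine synthesis, had the largest fall among those named here after their values were seen. One probe set was at 4.71 and 3.72 in BTBT T+tf/J. The others ran from 3.06 to 9.17 (median 8.70) in males and from 3.20 to 9.63 (median 8.58) in females. BALB/CByJ, DBA/2J, NOD/LtJ, NZO/HILtJ and NZW/LacJ met the same distance, with NOD/LtJ lowest at a mean of 3.13. The leading Phgdh probe set differed by 0.31 and 0.05. A probe set of Mbp, the myelin basic protein gene, was at 8.18 and 5.92 in BTBT T+tf/J, against 3.04 to 5.06 (median 4.08) in the other males and 2.54 to 4.85 (median 3.94) in the other females, above every other array (adjusted p = 7.21e-07). The leading Mbp probe set differed by -0.25 and -0.13.

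Lists of genes were counted too, among them channels and receptors that carry pain and itch, cell types, cell functions and known strain variants. They were 44 in all with 438 genes tested. Of these genes 1 was called higher (Scn2b) and 1 lower (Alad), which is to be read against the 0.134% and 0.25% of all genes. At the adjusted p alone 10.7% of the genes of the lists passed, against 11.2% of all genes. The median difference over all genes was 0.00 in males and 0.02 in females.

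The lists of voltage-gated channels lay above that in both arrays, while GABA and glutamate receptor genes were at -0.27 and -0.02 and nicotinic and P2X receptor genes at 0.09 and 0.01. Sodium channel genes had a median difference of 0.25 in the male BTBT T+tf/J array and 0.21 in the female one, with 6 of 10 genes higher in both arrays, calcium channel genes of 0.38 and 0.12 (8 of 12), and potassium and HCN channel genes of 0.30 and 0.10 (12 of 24). Over all genes 32.1% were higher in both arrays and 26.5% lower in both. Ranked among 23 strains by mean level, these 3 lists were first in the male array, and the 3 ranks in the female array were 3, 3 and 4. Lists other than channels were high too. Sensory transcription factor genes had medians of 0.35 and 0.21 (9 of 13 higher in both), at ranks 1 and 4. Inositol and calcium release genes had 0.15 and 0.16 (8 of 14), at ranks 1 and 2. Synaptic vesicle genes had 0.24 and 0.13 (11 of 20), at ranks 1 and 9. TRP, ASIC and Piezo channel genes as a list were first in the male array at 0.57 and rank 10 in the female at 0.08. Except for inositol and calcium release genes, these shifts were larger in the male array. That array had the high Gapdh 3' signal and the Csn3 signal, and the part of either in the shifts was not tested.

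Within the channel lists, several genes passed the adjusted p without reaching the distance in both arrays, and those given here were chosen after their values were seen. Kcnj3, a G protein-gated potassium channel gene, was at 6.68 and 7.01 in BTBT T+tf/J, against 4.52 to 6.66 in all 44 other arrays, and so above all of them (1.18 ± 0.19, adjusted p = 0.000246). Asic3, an acid-sensing channel gene of nociceptors, was at 9.92 and 9.33, against 5.85 to 9.85 in the other males and 5.24 to 9.36 in the other females (adjusted p = 0.000196). Cacna2d2, a calcium channel subunit gene, was at 9.03 and 8.79, against 6.42 to 8.83 and 6.59 to 8.85 (adjusted p = 0.00242). Trpa1, the irritant receptor gene, went the other way: 7.33 and 8.24, against 7.72 to 9.52 (median 8.73) in males and 7.92 to 9.59 (median 8.91) in females (-0.98 ± 0.15, adjusted p = 9.36e-05). Nr4a1, an immediate early gene, was at 8.10 and 7.90 and below all other arrays, which ran from 8.14 to 8.77 (adjusted p = 0.00395).

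Other lists were low in the same arrays. Fibroblast and matrix genes had a median of -0.65 in the male BTBT T+tf/J array and -0.25 in the female one, with 11 of 13 genes lower in both, and cholesterol synthesis genes of -0.50 and -0.12 (7 of 13), against the 26.5% of all genes. Both lists had their lowest level of 23 male arrays in BTBT T+tf/J, at ranks 15 and 19 of 23 in the female. Granulocyte and red cell genes had medians of -0.69 and -0.41 with 7 of 8 lower in both, and skeletal muscle genes of -0.63 and -0.27, while their mean levels in BTBT T+tf/J stayed within the range of the other strains. Schwann cell and myelin genes (-0.02 and 0.02) and the general neuronal genes (0.03 and 0.12) lay near 0. No gene of these lists was called.

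**Figure D5:**
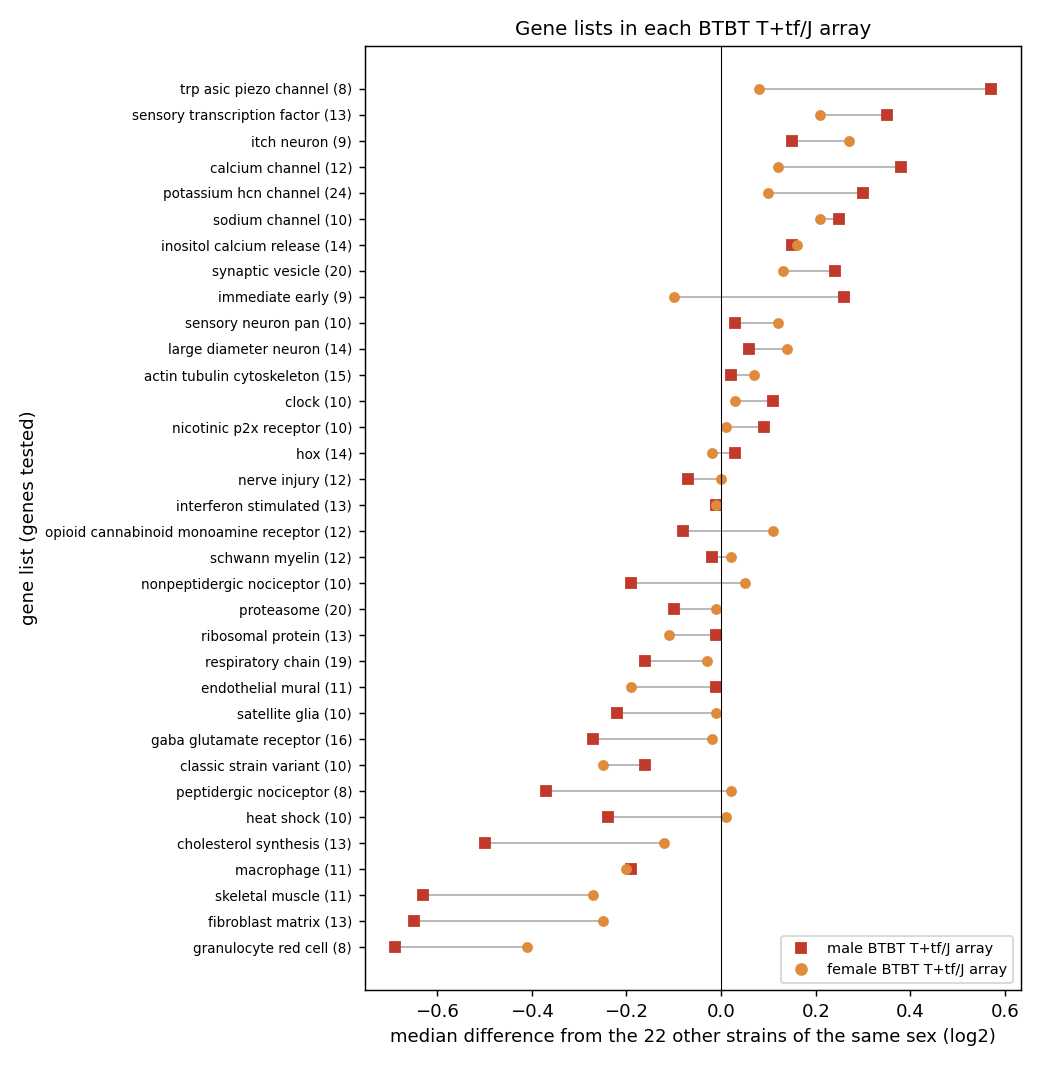
Median difference of the male (squares) and female (circles) BTBT T+tf/J array from the other strains of the same sex, in log2 units, for the 34 gene lists with at least 8 genes tested (number in brackets). Channel lists lie to the right, with others such as the sensory transcription factor and synaptic vesicle lists. The fibroblast, muscle and blood lists lie to the left, and for most of these lists the male array lies farther from 0.

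The nicotinic and P2X receptors that the study's title names were not called by the leading probe set in BTBT T+tf/J. Chrna6, the alpha6 nicotinic subunit gene, was at 6.56 and 6.98 in BTBT T+tf/J, against 6.57 to 9.54 (median 7.38) in the other males and 6.49 to 9.45 (median 7.5) in the other females. It was 1.95-fold lower (adjusted p = 0.00109) with the female array 0.80 units away, and KK/HIJ was lower at a mean of 6.53. Its second probe set was called lower, at 3.79 and 5.88, against medians of 6.65 in the other males and 6.76 in the other females (adjusted p = 0.00138). Chrna3, the alpha3 subunit gene, was at 6.28 and 7.03, against 4.21 to 6.41 (median 5.54) in males and 4.11 to 6.12 (median 5.24) in females, 2.48-fold higher (adjusted p = 0.000175) with the male array 0.78 units away. The female BTBT T+tf/J array was the highest of all for this probe set.

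P2rx3, the main ATP-gated channel gene of nociceptors, was at 11.34 and 11.46 in BTBT T+tf/J, against medians of 11.30 and 11.51 in the other males and females, a difference of 0.02 ± 0.09 (adjusted p = 0.943). P2rx2 was at 3.54 and 3.14, against medians of 3.37 and 3.14, under the log2 of 4 that the filter on low signals uses. Of the genes listed for known BTBR variants, Itpr3, an inositol trisphosphate receptor gene, was at 7.91 and 7.30, against 6.82 to 7.93 in males and 6.48 to 7.49 in females (0.37 ± 0.15, adjusted p = 0.1). Stxbp5l (0.30 ± 0.29) and Sorcs1 (0.03 ± 0.23) did not pass either. Kmo and Draxin stayed at or under 2.79 and 2.95 in all arrays and were not tested, and T and Disc1 are not analysed here.

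Against c57BL/6J alone, the strain most mouse lines are set against, 43 genes were called higher (0.384%) and 65 lower (0.58%). Of these 108 genes, 24 had been called in the same direction against all strains, which is 22.2% of the 108 and 55.8% of the 43; the 2 comparisons share the BTBT T+tf/J arrays. In 39 of the other 84 genes c57BL/6J itself lay at least 1 log2 unit from the other strains. Tmem87a was at 8.37 and 8.34 in BTBT T+tf/J, against 3.94 and 3.68 in c57BL/6J and a median of 8.23 in the 22 strains together (adjusted p = 7.01e-18). Kcnf1, a potassium channel subunit gene, was at 6.09 and 6.90, against 3.45 and 3.63 in c57BL/6J. Pttg1, the securin gene, was at 6.43 and 5.28 in BTBT T+tf/J, against 9.68 and 10.36 in c57BL/6J (adjusted p = 5.62e-07). In these 3 genes BTBT T+tf/J was near the median of the strains and c57BL/6J was not.

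The other genes named for this comparison were Hddc3, Cuedc1 and Rbfox2, higher by 2.43, 2.64 and 2.55 log2 units, and Zfp874a, Hspb6, Rpgrip1 and Prxl2c, lower by 3.11, 2.37, 3.85 and 2.32. They were taken from the genes not called against all strains, a choice that favours genes in which c57BL/6J itself lay apart, as it did in all of them. Taken 1 strain at a time, an analysis added after the values were seen, BTBT T+tf/J differed in 100 genes from SWR/J, the fewest, and in 169 from AKR/J, the most, with a median of 133.5; over all pairs of gene and strain 1.18% were called. Rpl14, 2900052N01Rik, Slc25a38, Rnase4 and Slc6a19 differed from 21 of the 22 strains, the most of any called gene, and Pdxdc1 from 6, the fewest.

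At the limit of the rule, Car8 (1.01), 4833420G17Rik (1.02) and Adat2 (1.02) lay just inside the distance of 1 log2 unit in their nearer array, and Tmem250-ps, Calr3 and Ankrd33b just outside it, with the nearer array at 1 after rounding, -0.99 and -0.98.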

How the data were processed

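Dorsal root ganglion RNA was measured on Affymetrix mouse arrays. The deposited values are linear intensities of each probe set on each array. Per the submitters' processing notes, the authors used GCRMA and R 2.6.2. Other upstream steps are not given in the sources used here. The number of arrays limits the precision.

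The deposited intensities were converted to log2(value + 1). Probe sets above a log2 of 4 in at least 2 of 46 arrays were kept (22130 of 45037), and a gene was read from its brightest probe set on average, among those with a single symbol (11209 of 18193 genes named). A probe set reads only its own stretch of a transcript. limma 3.58.1 in R 4.3.3 fitted a mean for each of 23 strains and a sex effect, with 22 residual degrees of freedom. BTBT T+tf/J was set against the mean of 22 strains and against c57BL/6J, with Benjamini-Hochberg adjustment over the probe sets tested. Fold changes are on the log2(value + 1) scale and understate the change of low genes. The test was checked on simulated data in which the spread of a gene was the same in every array. An array that deviates more than the others, as the male BTBT T+tf/J array did, was not simulated.

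The genes named by rule were the 15 called genes higher and 15 lower with the largest distance in the nearer array (leaving out Gm, Rik and accession names), called members of the lists, Chrna6, Chrna3, P2rx2, P2rx3 and the listed BTBR variants, the 5 leading genes in each direction against c57BL/6J among those not called against all strains, and 3 genes on each side of the distance limit. The other genes were named after their values were seen. The members, lists and tests were chosen with earlier results of these data known. The alternatives are given in the closing section.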

Additional observations from a re-analysis of the deposited data

Results flagged for a closer look

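The male BTBT T+tf/J array had a Gapdh 3' minus 5' control signal of 0.60, above all arrays of the other strains. The same array had Csn3 at 11.40 and Xist at 7.78, each the highest of 23 male arrays. What these signals contribute to the differences of the male array was not tested beyond the covariate fits given below.

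In 3 probe sets the male and the female BTBT T+tf/J array lay on opposite sides of the other strains, and the difference between the sexes was not tested. A further probe set of Cap1 was at -0.54 in the male array and 1.77 in the female one, one of Chrna3 at -0.58 and 1.06, and one of Pdxdc1 at -1.53 and 0.21.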

How the results depend on the processing

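Against 15 genes higher and 28 lower, an offset of 16 in the log gave 9 and 14, array weights 9 and 15, the spread between strains as error 4 and 17, and a distance of 2 log2 units 1 and 4. Without BTBT T+tf/J replicate 1, the male array, the counts were 37 and 41, with 37 of the 43 genes still called, and without replicate 2, the female array, 267 and 388, with 42. These fits take the lone array to vary like the other strains. Without 1 of the 44 other arrays the counts ran from 13 to 16 higher and from 25 to 31 lower. Of the 43 genes, some dropped out when 1 other array was removed: 4833420G17Rik for 14 of the arrays, Adat2 for 15, Cap1 and Car8 for 7 each, Pdxdc1 for 4, Mndal for 3, Xaf1 without the male c57BL/6J or C58/J array and Zfp991 without the female BALB/CByJ array. Gapdh 3' minus 5' signal as a covariate gave 14 and 24, with 38 of the 43 kept and 191 in place of 1260 genes past the adjusted p. Csn3 as a covariate, added after the data were seen, gave 413 past it. In both covariate fits the distance was read from values not adjusted for the covariate, so that only the p-value could change a call. Against c57BL/6J (43 and 65), the counts without BTBT T+tf/J replicates 1 and 2 ran from 49 to 331 higher and from 69 to 413 lower, and without c57BL/6J replicates from 49 to 119 higher and from 89 to 101 lower.

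Averaging all probe sets of a gene turned Pdxdc1 (-0.13), Scn2b (-0.10), Xaf1 (1.95), P2rx3 (-0.06) and Sorcs1 (-0.006), and leaving out shared probe sets turned Gng4 (-0.009). Among genes not called, the Gapdh covariate turned P2rx2 (0.13), P2rx3 (-0.09), Stxbp5l (-0.003) and Sorcs1 (-0.28), the Csn3 covariate P2rx3 (-0.03) and Sorcs1 (-0.007), and centred array medians P2rx2 (0.006). With the male or the female BTBT T+tf/J array left out, P2rx3 was at -0.01 or 0.05, P2rx2 at -0.2 or 0.14 and Sorcs1 at 0.2 or -0.14, and leaving out the female C3H/HeJ array turned P2rx2 (0.002). The causes were not tested. The sex effect of the fit already pairs the male arrays and the female arrays across strains, and the labels carry no replicate numbers for another pairing.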
